A study of Mus musculus with 2 samples.

Results

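Smooth muscle type contractile genes were followed here through 10 genes of the actomyosin system in cultured glia, among 21936 genes tested on the same arrays. The members were every array probe that is not a control and whose gene name in the scanner files is Acta2, Tagln, Cnn1, Myl9, Tpm1, Tpm2, Myh9, Myh10, Fhl2 or Srf. They comprise 6 genes of the smooth muscle contractile apparatus, 2 nonmuscle myosin heavy chains, and the transcription factor Srf with its LIM-domain partner Fhl2. Together they have 21 probes on 30 spots of each array, and 19 of these probes were bright enough to be tested. Every channel of both arrays read all 10 genes well above background, so no member was lost to the filter on dim probes.

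RNA came from primary oligodendrocytes and primary astrocytes of C57BL/6J mice with no treatment. Oligodendrocytes were obtained by shaking mixed glial cultures after 10 to 14 days. The cells left behind were kept in DMEM with 10% FCS (fetal calf serum), microglia were shaken off after a further 7 to 10 days, and the remaining astrocyte layer was collected with trypsin. The astrocyte cultures were thus older, were kept in serum after the shaking and were released by a protease. None of these can be told apart from cell type. The medium of the oligodendrocytes is not given here, so whether serum differed between the cell types is not known. Each of 2 arrays held both cell types in competition: on the array of replicate 1 oligodendrocyte RNA was labelled with Cy5 and astrocyte RNA with Cy3, and on the array of replicate 4 the dyes were exchanged. The study asked which mRNAs are enriched in oligodendrocytes. The series text speaks of 3 independent samples per cell type, and the arrays of replicates 1 and 4 were analysed here. The labels of these 2 arrays do not name their cultures, so part or all of the spread between them may be technical. Since the dyes were exchanged between the arrays, an effect of the dye on a gene cannot be told apart from a difference between replicates. The p-values rest only in part on a gene's own spread: limma took 8.45 of 9.45 degrees of freedom from all genes. These are bulk cultures, in which fewer cells of a type and less RNA per cell cannot be told apart.

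As background, smooth muscle cells contract when myosin pulls on filaments of alpha-actin that carry tropomyosin, calponin and transgelin, and phosphorylation of the regulatory light chain turns the motor on. Almost every cell runs a nonmuscle form of the same machine for shape, adhesion and migration. Many genes of both forms are targets of serum response factor, which binds a promoter sequence called the CArG box and is brought into play by serum and by actin polymerisation. Cultured astrocytes are known to build stress fibres in serum. Oligodendrocytes lower actomyosin activity as they differentiate and wrap axons.

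Of the member probes, 4 have a listed position longer than the probe itself, and 3 of these are printed because the actin and tropomyosin families share much of their coding sequence. Each has an open reading frame, as many other member probes do, and they are called coding probes here without an annotation that places them. The first is a probe of Acta2 whose listed position on the mm7 build, chromosome 19 from 33949738 to 33952992 on the minus strand, is 3255 bases long, more than the 60 bases of the probe. The other probes belong to the tropomyosins. The Tpm2 probe is listed on chromosome 4 from 43533092 to 43533242, and the Tpm1 probe on chromosome 9 from 67064287 to 67065357, both on the minus strand. Where the tropomyosin probes overlap, over 33 bases, 27 bases are identical (81.8%) and 6 differ. Capitals mark the differing bases.
Acta2 coding probe: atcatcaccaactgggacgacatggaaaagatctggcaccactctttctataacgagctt
Tpm2 coding probe: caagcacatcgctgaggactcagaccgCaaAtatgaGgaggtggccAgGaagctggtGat
Tpm1 coding probe: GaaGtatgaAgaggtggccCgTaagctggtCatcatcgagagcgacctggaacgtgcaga

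The CArG box was looked for in the RefSeq promoter windows of the GRCm38.p6 build, which run from 250 bases before to 50 after a start site. Of the members, 9 matched the table, Tagln not. The box is CC, a run of A or T, then GG, and reads as the same pattern on both strands. It was present in 3 members, Myl9, Srf and Fhl2, and in 1.63% of the 32851 windows in the table. In members only the 250 bases before the start site were read. Shares of the table cover all 300 bases and count windows, not genes. The members were listed as targets of serum response factor, so these shares are no independent comparison. With 1 mismatch allowed, Acta2 and Tpm1 also had a match, but 19.9% of all windows do so. No such letters were found before the start site in Cnn1, Tpm2, Myh9 and Myh10. A match is a description of letters and not a measured binding site. The stretches below, all but that of Myl9 on the minus strand, show the perfect matches and the upstream one of the Acta2 matches, with the box in capitals.
Myl9, chr2:156775283-156775332: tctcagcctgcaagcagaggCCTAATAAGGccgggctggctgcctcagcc
Srf, chr17:46556215-46556264: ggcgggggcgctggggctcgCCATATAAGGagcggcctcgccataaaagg
Srf, chr17:46556195-46556244: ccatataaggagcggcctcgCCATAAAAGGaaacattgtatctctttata
Fhl2, chr1:43196828-43196877: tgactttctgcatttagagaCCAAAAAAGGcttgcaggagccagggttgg
Fhl2, chr1:43163963-43164012: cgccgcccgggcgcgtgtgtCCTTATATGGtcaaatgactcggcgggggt
Acta2, 1 mismatch, chr19:34255428-34255477: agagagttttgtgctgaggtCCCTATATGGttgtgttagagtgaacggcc
The boxes begin 161 bases before the start site in Myl9, 82 and 62 in Srf, 96 and 31 at the 2 start sites of Fhl2, and 84 in Acta2. Members with a perfect box had ratios on either side of 0, as the values below show.

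The contractile genes were mostly lower in oligodendrocytes than in astrocytes. Ratios are given as log2 of oligodendrocyte over astrocyte, so negative values mean a higher astrocyte signal, and signals are normalised fluorescence in arbitrary units that can be compared between cultures for 1 probe but not between probes. Of the 10 members, 6 were called higher in astrocytes (limma with Benjamini-Hochberg adjustment over all genes, adjusted p under 0.05), where 22.6% of all genes were. Another 2 were called higher in oligodendrocytes, where 18.6% of all genes were, and 2 were not called. In either direction 8 of 10 were called, against 41.2% of all genes. The median log2 ratio of the members was -0.77, and that of all genes was -0.0041.

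**Figure D1:**
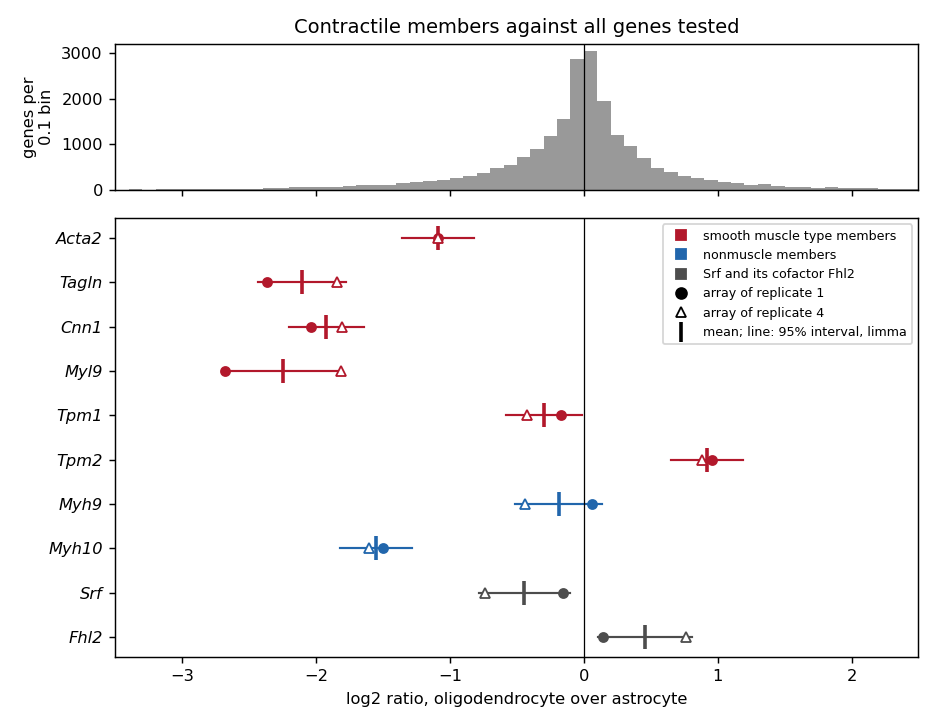
Log2 ratio of oligodendrocyte over astrocyte for the 10 members (lower panel: circle, array of replicate 1; triangle, array of replicate 4; tick, mean; line, 95% interval from limma), below a histogram of the mean ratio of all 21936 genes. Myl9, Tagln, Cnn1, Myh10 and Acta2 lie at -1.09 or lower, and Tpm2 at 0.92 lies on the other side of 0.

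Myl9, the regulatory light chain whose phosphorylation switches smooth muscle myosin on, had the lowest ratio of the members. Its signal was 11581 and 13841 in oligodendrocytes of replicates 1 and 4, and 74319 and 48803 in astrocytes. Both astrocyte signals lie well above both oligodendrocyte signals. The log2 ratio was -2.25 ± 0.61 (SD, n = 2 arrays; limma adjusted p = 6.21e-06), or 4.76-fold higher in astrocytes. Only 1.70% of all genes had a lower ratio.

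Tagln encodes transgelin (SM22 alpha), an actin-binding protein used as an early smooth muscle marker. Signals were 21335 and 19548 in oligodendrocytes against 110006 and 70033 in astrocytes. The log2 ratio was -2.37 on the array of replicate 1 and -1.84 on that of replicate 4. Its mean was -2.10 ± 0.37 (SD, n = 2; limma adjusted p = 2.04e-06), 4.30-fold higher in astrocytes. A second Tagln probe gave -1.74 ± 0.16, so both probes place the gene far below 0.

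Cnn1, the smooth muscle calponin that binds actin and holds back the myosin motor, had a like pattern. Its signal was 8297 and 7829 in oligodendrocytes and 34160 and 27404 in astrocytes. The cultures do not overlap, and the log2 ratio was -1.92 ± 0.17 (SD, n = 2; limma adjusted p = 1.30e-06), 3.80-fold higher in astrocytes. Of all genes, 2.69% had a lower ratio.

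Acta2, smooth muscle alpha-actin, was higher in astrocytes by a smaller factor. The probe that represents it gave signals of 12443 and 11274 in oligodendrocytes and 26497 and 24030 in astrocytes. The log2 ratio was -1.09 on both arrays (mean -1.09, SD 0.00093, n = 2; limma adjusted p = 4.64e-05; 95% interval from limma -1.36 to -0.82), 2.13-fold higher in astrocytes. This probe is printed on 10 spots of each array, and single spots ranged from -1.17 to -1.03 on the array of replicate 1 and from -1.13 to -1.05 on that of replicate 4.

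The probes of Acta2 did not all give that value. The coding probe printed above read 15523 and 13170 in oligodendrocytes and 14703 and 17330 in astrocytes, so the cultures overlap. Its log2 ratio was 0.078 on the array of replicate 1 and -0.40 on that of replicate 4, with a mean of -0.16 ± 0.34 (SD, n = 2; limma adjusted p = 0.42 over all probes). Another probe, on chromosome 19 from 33942440 to 33942499 (mm7), gave -1.58 ± 0.18, with 843 and 1008 in oligodendrocytes against 2757 and 2749 in astrocytes. The representing probe lies close to it, from 33942803 to 33942862. The dimmest probe tested gave -0.14 ± 0.60 at signals of 133 to 240, and 1 more was not well above background in either cell type. The coding sequences of the vertebrate actins are very alike as background, and whether this coding probe also reads other actin mRNAs was not tested. Among other actins, Actb gave 0.33 ± 0.34 and was not called, and Actg1 gave -0.46 ± 0.20 (limma adjusted p = 0.0157). Actb and Actg1 were looked at because of this probe. Of the muscle actins, Actg2 gave 0.31 on the array of replicate 1 and -0.47 on that of replicate 4, with a mean of -0.078. Actg2 was not called, and Acta1 (-1.14 ± 0.24) and Actc1 (-0.44 ± 0.20) were higher in astrocytes. These muscle actins were added here after their values were seen. With the mean of the 4 tested Acta2 probes in place of the brightest, the ratio was -0.74 (limma adjusted p = 0.000274).

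**Figure D2:**
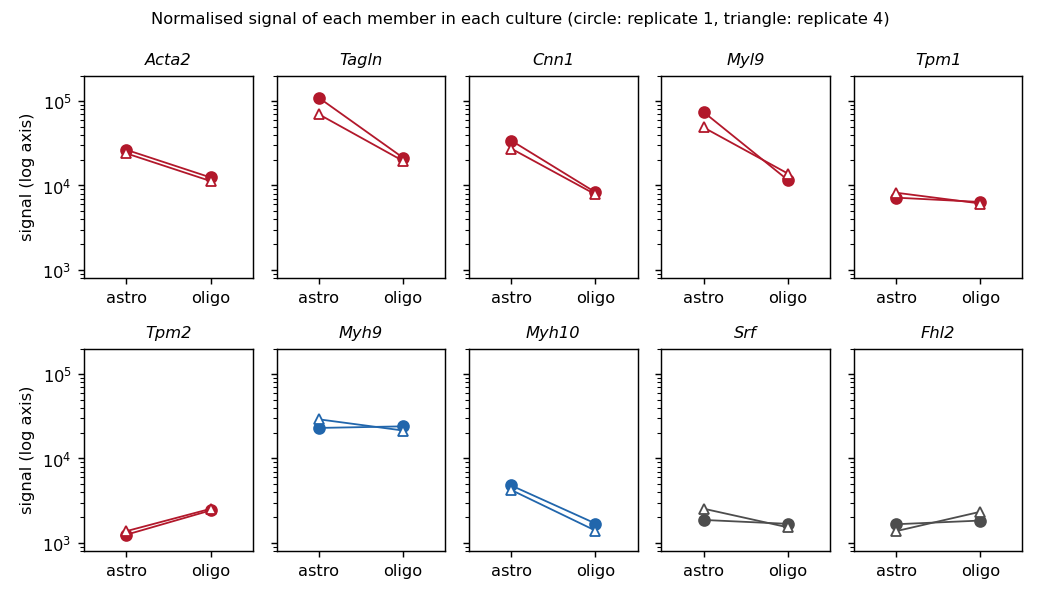
Normalised signal on a log axis of each member in astrocytes (astro) and oligodendrocytes (oligo); circles and triangles are the arrays of replicates 1 and 4, and a line joins the channels of 1 array. Lines fall steeply from astrocytes to oligodendrocytes for Tagln, Cnn1, Myl9 and Myh10, rise for Tpm2, and for Myh9 have opposite slopes on the 2 arrays.

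The tropomyosins, rod proteins that lie along the actin filament and gate the access of myosin, did not follow the other smooth muscle type members. Tpm2, beta-tropomyosin, was higher in oligodendrocytes. Its signal was 2420 and 2529 there against 1246 and 1373 in astrocytes. The log2 ratio was 0.92 ± 0.054 (SD, n = 2; limma adjusted p = 0.000159), 1.89-fold higher in oligodendrocytes, and 93.1% of all genes had a lower ratio. The Tpm2 coding probe printed above gave 0.96 ± 0.14, with 1801 on both arrays in oligodendrocytes against 865 and 990 in astrocytes. Both Tpm2 probes thus gave the same direction on both arrays.

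Tpm1, alpha-tropomyosin, was not called, and its 3 probes did not share a sign. The probe that represents it had signals of 6369 and 6110 in oligodendrocytes and 7170 and 8206 in astrocytes. Its log2 ratio was -0.30 ± 0.18 (SD, n = 2; limma adjusted p = 0.0898; 95% interval from limma -0.58 to -0.014). The coding probe that overlaps the Tpm2 probe gave 0.13 ± 0.33, with opposite signs on the arrays (0.36 and -0.099). The dimmest of the 3, on chromosome 9 from 67059621 to 67061176, gave 0.31 ± 0.022 (limma adjusted p = 0.0542 over all probes). Tpm1 transcripts are known to be spliced in many ways, including at their last exon, and which isoforms each probe reads was not examined here. None of the 3 Tpm1 probes passed the test, so no direction is given for the gene.

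**Figure D3:**
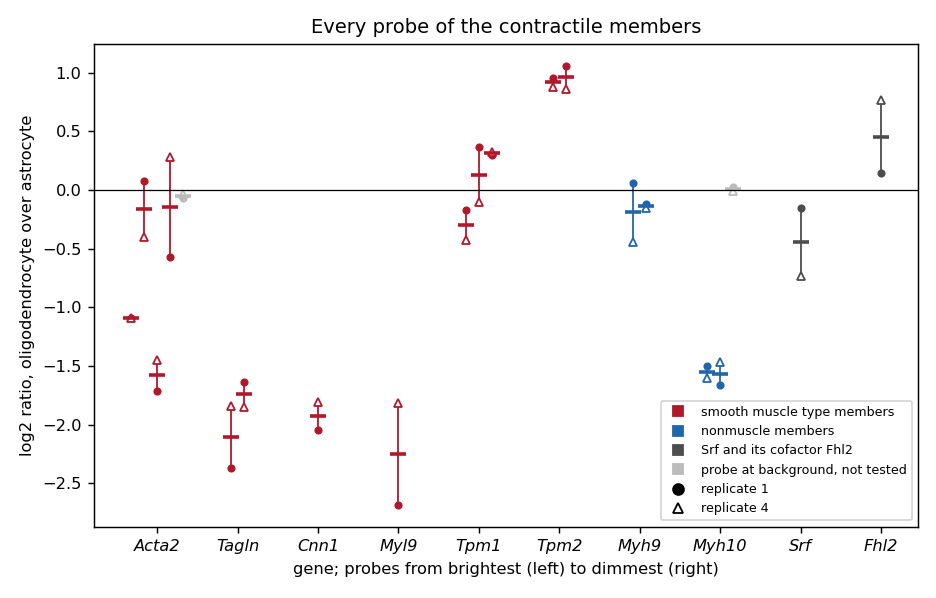
Log2 ratio of oligodendrocyte over astrocyte for all 21 member probes, ordered within each gene from brightest to dimmest; circle, replicate 1; triangle, replicate 4; bar, mean of both arrays; grey, the 2 probes at background. The Acta2 probes split between values near -1.1 to -1.6 and values near 0, the 3 Tpm1 probes lie on both sides of 0, and both Tpm2 probes lie near 0.9.

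Of the 19 member probes tested, 12 were called, 9 of them higher in astrocytes and 3 higher in oligodendrocytes, beside 40.3% of all 32643 probes called in either direction. Genes with several tested probes gave the same call for every one of them in Tagln, Tpm1, Tpm2 and Myh9. For Myh10 the same held for the 2 probes tested, and Acta2 alone had called probes beside ones that were not. Probes of 1 gene share their RNA and are not replicates.

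Nonmuscle myosin heavy chains, the motors of stress fibres and of the contractile ring, gave unlike values. Myh10, the chain of nonmuscle myosin IIB, had signals of 1691 and 1392 in oligodendrocytes and 4784 and 4230 in astrocytes. These do not overlap, and the log2 ratio was -1.55 ± 0.073 (SD, n = 2; limma adjusted p = 4.28e-06), 2.93-fold higher in astrocytes. A second Myh10 probe gave -1.56 ± 0.14, and 1 more was at background.

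Myh9, the chain of nonmuscle myosin IIA, showed no difference past the test. Signals were 24054 and 21472 in oligodendrocytes and 23033 and 29153 in astrocytes, so the cell types overlap. The log2 ratio was 0.063 on the array of replicate 1 and -0.44 on that of replicate 4. Its mean of -0.19 ± 0.36 (SD, n = 2) was not called (limma adjusted p = 0.36), with a 95% interval from limma of -0.51 to 0.14. The interval of Myh10, -1.82 to -1.28, does not overlap that of Myh9; the difference between the 2 chains was not tested.

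Srf, the factor itself, was somewhat higher in astrocytes. Signals were 1676 and 1523 in oligodendrocytes against 1865 and 2536 in astrocytes. The log2 ratio was -0.15 on the array of replicate 1 and -0.74 on that of replicate 4, with a mean of -0.45 ± 0.41 (SD, n = 2; limma adjusted p = 0.0406). Fhl2, a LIM-domain protein that is both a target and a partner of Srf, went the other way. Its signals were 1833 and 2331 in oligodendrocytes and 1658 and 1372 in astrocytes, and its log2 ratio was 0.14 on the array of replicate 1 and 0.77 on that of replicate 4. The mean was 0.46 ± 0.44 (SD, n = 2; limma adjusted p = 0.0414). Neither call is firm. Across 14 other settings with a test, Srf was called in 7 of 14 (adjusted p from 8.65e-05 to 1). Fhl2 was called in 8 of 14 (adjusted p from 0.0153 to 1). These 14, here and below, count Feature Extraction's log ratio and the authors' value table separately, though their values for the members were identical.

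Smooth muscle type and nonmuscle members were then set side by side. The 6 smooth muscle type genes had a median log2 ratio of -1.51, with 4 higher in astrocytes, 1 higher in oligodendrocytes and 1 not called. The 2 nonmuscle heavy chains had a median of -0.87, with 1 higher in astrocytes and 1 not called. Of all genes, 22.6% were called higher in astrocytes and 18.6% higher in oligodendrocytes. The smooth muscle type median was lower than the nonmuscle one by 0.85 on the array of replicate 1 (a difference of -0.85) and by 0.43 on that of replicate 4 (-0.43), a mean difference of -0.64 ± 0.30 (SD, n = 2 arrays). No test was made between chosen lists of 6 and 2 genes. The wider lists below did not keep this order. Their medians were -0.44 for other smooth muscle and striated genes and -0.49 for other nonmuscle genes. The lists overlap gene by gene: Acta2, Tpm1 and Tpm2 had higher ratios than Myh10, and Tagln, Cnn1 and Myl9 had lower ones.

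Other genes of the pathway are given from 4 lists, and up to 3 called genes of each are named by the size of their ratio. Beside the counts of each list stand the shares over all genes, 22.6% called higher in astrocytes and 18.6% higher in oligodendrocytes. Of 9 tested genes among 10 other smooth muscle and striated contractile genes, 5 were higher in astrocytes and none in oligodendrocytes, 4 did not pass, and the median log2 ratio was -0.44. Synpo2, an actin-bundling protein, gave -2.30 ± 0.21 by its brightest probe. A probe nearly as bright gave -1.57, and dimmer ones gave -0.078 and -0.30. Lmod1, a leiomodin that nucleates actin filaments in smooth muscle, gave -1.89 ± 0.0064, and Acta1, skeletal alpha-actin, gave -1.14 ± 0.24. The remaining called genes were Cald1 (-0.93 ± 0.075), which encodes caldesmon, and Actc1 (-0.44 ± 0.20), cardiac actin, both named after their values were seen. Whether the probes of Acta1 and Actc1 also read other actin mRNAs was not tested. Des had no probe that entered.

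Other nonmuscle actomyosin genes leaned the same way. Of 18 tested, 10 were higher in astrocytes, 1 was higher in oligodendrocytes and 7 did not pass. The shares over all genes were 22.6% higher in astrocytes and 18.6% higher in oligodendrocytes. The median of this list was -0.49, or -0.32 on the array of replicate 1 alone. Cnn3, the calponin of nonmuscle cells, had the largest ratio of the list at -2.85 ± 0.30 (limma adjusted p = 2.18e-07), lower than that of Cnn1. Myh14, the chain of nonmuscle myosin IIC, gave -1.53 ± 0.34, and Vcl, the focal adhesion protein vinculin, gave -1.04 ± 0.056. The exception was Iqgap1, a scaffold at the cell cortex, at 0.61 ± 0.21, named after its value was seen.

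Among Srf cofactors and LIM proteins, 8 of 10 had a tested probe. Of these, 4 were higher in astrocytes, 1 was higher in oligodendrocytes and 3 did not pass. Over all genes, 22.6% were called higher in astrocytes and 18.6% higher in oligodendrocytes. The median of this list was -0.19. It was 0.038 with no filter on dim probes, -0.39 with Feature Extraction's log ratio and -0.11 on the array of replicate 1 alone. Fhl1, a relative of Fhl2, gave -2.11 ± 0.30, Csrp2 gave -1.28 ± 0.26 and Elk3, a ternary complex factor that binds Srf, gave -0.76 ± 0.25. The actin-regulated coactivators of Srf, Mrtfa and Mrtfb, named after their values were seen, did not give 1 value over their probes. The brightest Mrtfa probe gave 0.47 ± 0.42 (limma adjusted p = 0.0351), with 0.17 on the array of replicate 1 and 0.76 on that of replicate 4, and a dimmer one gave -0.17. For Mrtfb the brightest probe gave -0.43 ± 0.11 (limma adjusted p = 0.0179), and the others gave 0.0066 and -0.17. Elk1 and Elk4 had no probe that entered.

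Of 6 secreted and early targets of Srf, 3 were higher in astrocytes, where 22.6% of all genes were, and the others did not pass. The median of the 6 was -0.68. Those called were the matricellular genes Ccn1 (-1.84 ± 0.27), Thbs1 (-1.21 ± 0.10) and Ccn2 (-1.07 ± 0.19), which are secreted and bind integrins. Those not called, named after their values were seen, were Fos (0.19 ± 0.37), Egr1 (-0.28 ± 0.11) and Ankrd1 (0.14 ± 0.042).

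**Figure D4:**
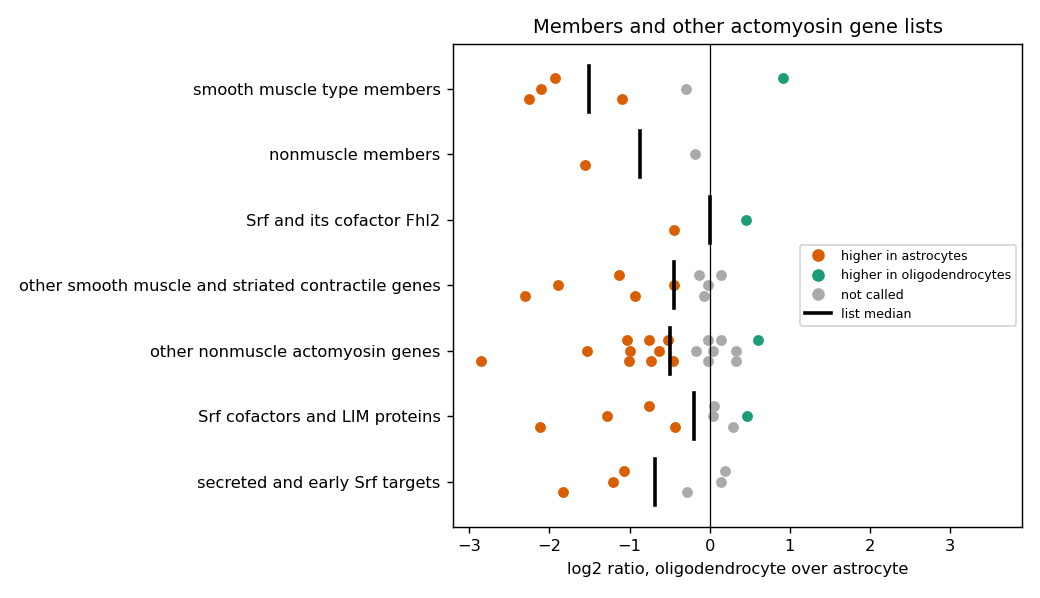
Log2 ratio of oligodendrocyte over astrocyte of each gene in the 3 member lists and 4 other lists; 1 point is 1 gene (mean of 2 arrays), coloured by its call, and the black bar is the list's median. The smooth muscle type members have the lowest of these medians, -1.51, and the secreted and early Srf targets lie at -0.68.

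The cell type labels were checked against marker genes. For these and all marker lists below, the shares over all genes were 22.6% higher in astrocytes and 18.6% higher in oligodendrocytes. All 8 oligodendrocyte markers were higher in oligodendrocytes (median 4.17) and all 6 astrocyte markers were higher in astrocytes (median -3.14). Markers of other cells moved with the contractile genes or against them, and the part of such cells in the members' ratios was not tested. All 5 ependymal markers were higher in astrocytes (median -3.40), with summed signals of 158546 and 136084 there and 17847 and 11543 in oligodendrocytes. Of 7 microglial markers, 6 were higher in oligodendrocytes (median 1.40, summed signals 108471 and 125328 against 27335 and 29810).

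Cells that normally carry smooth muscle actin were read in the same way. Of 7 smooth muscle markers, 6 were tested, and Lmod1 and Synpo2 were the 2 higher in astrocytes (median -0.11). That median was -0.067 on the array of replicate 1 and -0.31 on that of replicate 4. Summed signals were 8585 and 6513 in oligodendrocytes and 8869 and 10438 in astrocytes, so both astrocyte sums were higher, the nearest pair only slightly. Most of the sum was the probe of Actg2, the gamma-actin of smooth muscle, which was not called. It read 7467 and 5422 in oligodendrocytes and 6021 and 7487 in astrocytes. Whether the Actg2 probe also reads other actin mRNAs was not tested, so its signal may not be that of Actg2 alone. Smtn, smoothelin, read 339 and 334 against 364 and 374. Myh11, the smooth muscle myosin heavy chain that defines the cell type, read 97 and 98 in oligodendrocytes and 99 and 98 in astrocytes. Myocd, the muscle-specific coactivator of Srf, read 96 and 102 against 87 and 106. Negative control spots had medians of 59.7 to 60.6, so Myh11 and Myocd lay near the floor of the arrays in both cell types, unlike Actg2 and Smtn.

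For pericytes, 7 of 8 markers were tested, and 4 were higher in astrocytes and 2 in oligodendrocytes (median -0.49). The largest ratios were Anpep at 3.04, Cspg4 at 1.98 and Kcnj8 at -1.88, of which Cspg4 is also known from oligodendrocyte precursors. Kcnj8 was well above background in oligodendrocytes on only 1 of 2 arrays. Summed signals were 16259 and 18509 in oligodendrocytes against 6440 and 6310 in astrocytes, opposite to the median, since a sum follows its brightest probes, here Anpep and Cspg4 (mean log2 signals of 13.13 and 12.53 in oligodendrocytes). Fibroblast markers, which myofibroblasts share, mostly ran against the contractile genes. Of 12, 11 were tested, and 7 were higher in oligodendrocytes and 1 in astrocytes (median 2.01). The 1 higher in astrocytes was Thy1 (-1.84), named after its value was seen, and 3 did not pass. The largest ratios were Postn (3.25), Lox (2.98) and Col1a1 (2.69). Summed signals were 80390 and 85126 in oligodendrocytes and 33057 and 29663 in astrocytes. In oligodendrocytes the brightest of the list were Col1a1 and Col1a2 (mean log2 signals of 14.7 and 14.5). Among 6 endothelial markers, Cdh5 was called higher in oligodendrocytes and Kdr higher in astrocytes. The median was -0.069, or -0.018 on the array of replicate 4 alone. Summed signals were 1887 and 1828 in oligodendrocytes against 2155 and 1972 in astrocytes. A count of 1 of 6 in each direction is near the shares over all genes, 22.6% higher in astrocytes and 18.6% higher in oligodendrocytes.

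The calls of the members depended in part on where a ratio of 0 is placed. The arrays carry probes for 10 spike-in RNAs, whose Cy5 over Cy3 ratios differed widely (from -2.57 to 3.88 in log2 on the array of replicate 1) but whose ratios after turning and averaging the dye swap lay between 0.48 and 0.78, with a median of 0.71. How much spike-in RNA was added to each sample is not given in the sources used here. With that median set to 0, every ratio moved down by 0.71. All-gene calls then split into 18311 higher in astrocytes and 1307 higher in oligodendrocytes, in place of 4966 and 4071. On that scale Tpm2 was 0.21 (limma adjusted p = 0.122), Fhl2 turned to -0.25 (limma adjusted p = 0.146), Tpm1 was -1.01 and Myh9 was -0.90, both called. With each array centred on its median in place of loess, Tpm2 was 0.80 and not called (limma adjusted p = 0.223). Acta2, Tagln, Cnn1, Myl9 and Myh10 were higher in astrocytes and called in all 14 other settings with a test. Relative to the median of all genes, Tpm2 and Fhl2 lay above and those 5 below. The spike-in scale cannot change this, since it moves every ratio by the same amount.

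**Figure D5:**
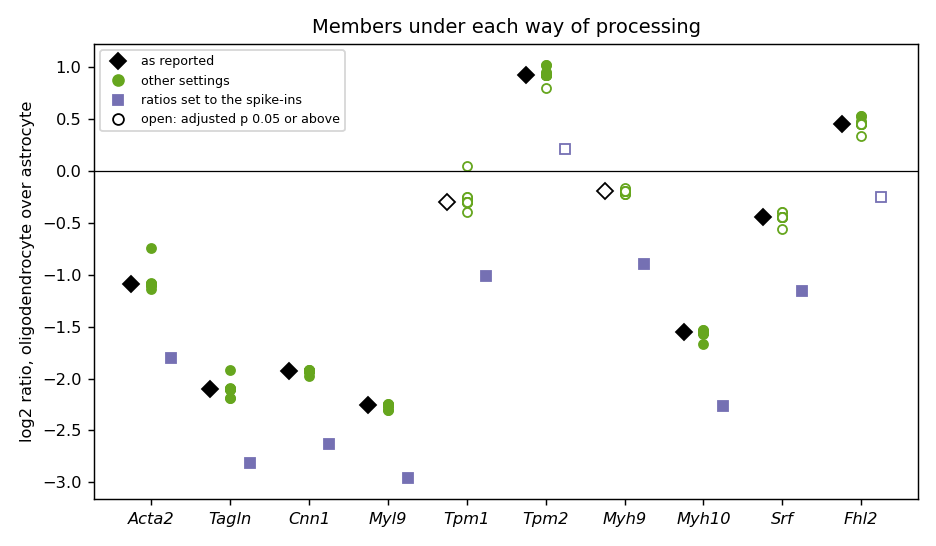
Log2 ratio of oligodendrocyte over astrocyte of each member as reported (diamond), under the other settings (circles) and with ratios set to the spike-ins (squares); open symbols have a limma adjusted p of 0.05 or above. Acta2, Tagln, Cnn1, Myl9 and Myh10 stay filled and below 0 throughout, and Fhl2 crosses 0 when ratios are set to the spike-ins.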

How the data were processed

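The deposited scanner files hold spot intensity per channel from Agilent Feature Extraction 9.5.3.1, not normalised by the authors, for a design on mm7, per the file headers. The log10 ratios deposited by the authors, in these files and in their value table, were background-subtracted and dye-normalised, per the file headers, and served as alternatives. No other steps of the authors are given in the sources used here. Intensities were background-corrected with normexp (offset 50, which shrinks the ratios of dim probes) and normalised by loess within each array in limma 3.58.1 (R 4.3.3), with control spots at weight 0. Log2 ratios were turned to oligodendrocyte over astrocyte, and unmarked spots of a probe were averaged.

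A probe was tested where both arrays had it well above background in at least 1 cell type, as for 32643 of 41174. The brightest such probe stood for its gene. Names came through RefSeq tables (25062 of 43379 gene spots by accession, 6762 by symbol, 3091 by an older symbol and 8464 by the file's name). Genes were tested against 0 with lmFit and eBayes, with 1 residual degree of freedom and 8.45 borrowed from the variance of all genes. Signals are after loess and Aquantile. The code was tested on simulated data. The number of arrays limits the precision. Well above background were 76.6% to 83.9% of gene spots per channel, and none were saturated. Turned ratios of the 2 arrays had a Pearson correlation of 0.93 and a Spearman correlation of 0.81 over genes, and genes are no independent replicates. The headers give 1 slide and 1 scan for both arrays, so neither can be tested as a batch.

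Members, lists, markers and tests were chosen with earlier results of these data known. Of the gene lists, 1 is not reported here. Named are all members, up to 3 called genes with the largest ratio of each list, and genes said to be chosen after their values were seen. The alternatives were other background corrections, normalisations, filters, probe rules, priors and tests, and leaving out each array.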

Additional observations from a re-analysis of the deposited data

How the results depend on the processing

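With median centring, 2936 genes were called (1845 higher in astrocytes, 1091 in oligodendrocytes), and 5 members, none of them higher in oligodendrocytes. Ratios set to the spike-ins gave 19618 called genes (18311 and 1307), and 0 members higher in oligodendrocytes; Fhl2 was -0.25 there. Limma's treat against 0.5 gave 3830 genes (2215 and 1615). Under treat, no background subtraction, no filter on dim probes and a fit of separate channels, 1 member was higher in oligodendrocytes, Fhl2 being the one lost. Treat sets a higher bar by construction and the spike-in setting moves every ratio; for the rest the cause was not tested. Srf lost its call under no background subtraction, Feature Extraction's log ratio, the value table, median centring, no filter, treat and separate channels. On single arrays, values without a test, the smooth muscle type minus nonmuscle difference ranged from -0.85 to -0.43. Each array already pairs both cell types of a replicate, so no further paired fit applies. Of the list medians reported, all moved down with the spike-in setting. Some also moved under other settings. That of the Srf cofactors turned to 0.038 with no filter and was -0.39 with Feature Extraction's log ratio or the value table. For pericytes it was -0.26 with no filter and -0.14 with the stricter filter, but -0.68 with Feature Extraction's log ratio or the value table. The fibroblast median was 1.25 with no filter and 1.09 with the mean of a gene's probes. With that mean of probes, microglia had 0.99 and oligodendrocyte markers had 3.03. The endothelial median was -0.0090 with median centring.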
